A study of Mus musculus with 4 samples.

Results

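Proliferating cells copy their DNA in S phase and divide in mitosis, and the genes described here are 38 that carry out or control these steps. They were taken by symbol from a list of 16 S phase and replication genes, 19 genes of G2 and mitosis and 3 regulators of G1. All 38 were among the 22865 gene symbols of a count table from lung γδ T cells of mice with and without Aire, a regulator by which medullary thymic epithelium displays proteins of other organs while T cells mature. The cells, named Tgd17 in the labels, were viable, positive for CD45 and TCRgd, negative for TCRb and CD27, and Vg1,2,4,5-. Female C57Bl/6 mice aged 10 weeks gave the cells, and 500 sorted cells went into each library, which was prepared with Smart-Seq2 (cDNA over the full transcript length from little RNA). There were 2 libraries of the genotype Aire-/- and 2 of Aire+/+, and no other allele or treatment is given for either group. Nothing in the labels says that the libraries came from separate animals, or whether animals were pooled. The p-values therefore rest on a spread between 4 libraries that may be technical.

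In G1, D-type cyclins activate their kinases, which inactivate the retinoblastoma family and free E2F factors, while the inhibitor p27 (Cdkn1b) holds the cyclin-dependent kinases back. E2F then drives the genes that license origins and supply nucleotides: Cdc6 and Cdt1 load the Mcm2 to Mcm7 helicase, and Pcna clamps the polymerase to DNA. Genes of G2 and mitosis are switched on later, largely through the MuvB complex with B-Myb and FoxM1, which reaches their promoters by the cell cycle homology region (CHR) and by neighbouring CCAAT boxes bound by NF-Y. IL-17-producing γδ T cells are programmed in the fetal and neonatal thymus and persist in tissues such as the lung, where they can renew themselves by slow division.

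The promoters of the S phase and the mitotic genes hold different motifs. RefSeq promoter windows (GRCm38.p6, 250 bases before to 50 after the start site, 300 in all) were matched for 30 of the 38 genes. The 8 others are Mcm4, Ccne2, Gins2, Ccna2, Aurkb, Kif20a, Tpx2 and Ccnd2. The 160 bases before the start are printed for 2 helicase genes, chosen because both hold E2F-type sites there, and for 4 mitotic genes, chosen because each holds a CHR element and a CCAAT box there. They run 5′ to 3′ on the gene's strand, and capitals mark matches to the motifs given after the sequences.
Mcm5 (chr8:75109349-75109508, + strand): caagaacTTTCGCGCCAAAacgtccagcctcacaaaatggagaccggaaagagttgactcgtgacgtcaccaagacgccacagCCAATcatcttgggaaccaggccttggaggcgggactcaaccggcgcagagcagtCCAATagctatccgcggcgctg
Mcm6 (chr1:128359706-128359865, - strand): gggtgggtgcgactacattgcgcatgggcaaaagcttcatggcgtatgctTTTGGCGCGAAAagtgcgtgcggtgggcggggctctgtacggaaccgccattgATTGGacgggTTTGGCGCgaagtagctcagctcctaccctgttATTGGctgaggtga
Kif11 (chr19:37376222-37376381, + strand): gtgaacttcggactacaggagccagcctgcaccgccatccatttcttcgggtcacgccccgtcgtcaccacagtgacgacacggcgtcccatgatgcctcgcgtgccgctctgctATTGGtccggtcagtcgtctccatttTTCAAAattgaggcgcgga
Cdc20 (chr4:118437344-118437503, - strand): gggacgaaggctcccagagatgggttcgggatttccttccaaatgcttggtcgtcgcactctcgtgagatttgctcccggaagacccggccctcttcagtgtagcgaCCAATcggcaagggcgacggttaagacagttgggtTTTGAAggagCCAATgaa
Cdk1 (chr10:69352913-69353072, - strand): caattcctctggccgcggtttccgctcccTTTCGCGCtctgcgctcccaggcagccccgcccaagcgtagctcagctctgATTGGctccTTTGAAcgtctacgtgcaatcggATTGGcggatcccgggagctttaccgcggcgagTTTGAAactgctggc
Top2a (chr11:99024190-99024349, - strand): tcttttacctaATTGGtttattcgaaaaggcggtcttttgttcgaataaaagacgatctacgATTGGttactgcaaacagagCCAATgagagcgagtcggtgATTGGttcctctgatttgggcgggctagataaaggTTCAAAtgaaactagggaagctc
An E2F-type site was any of TTTGGCGC, TTTCCCGC, TTTGCCGC or TTTCGCGC, a CHR element was TTTGAA and a CCAAT box was CCAAT, searched on both strands, with overlapping matches counted apart. In Mcm5 2 E2F-type matches overlap, from positions -153 and -149 relative to the start, and in Mcm6 a like pair starts at -110 and -106 with another match at -47. The element nearest the start in the 4 mitotic genes is a CHR match at -19 in Kif11, -15 in Cdk1 and -23 in Top2a, while in Cdc20 a CCAAT box at -8 follows the CHR match at -18. Cdk1 also holds an E2F-type match at -131, the only one among the mitotic genes.

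Over the 300-base windows, E2F-type sites were in 6 of 13 S phase genes (46.2%), 1 of 15 mitotic genes (6.67%) and 2.33% of all 27025 promoters. The 6 were Mcm3, Mcm5, Mcm6, Mcm7, Cdc6 and Cdt1. CHR elements were in 11 of 15 mitotic genes (73.3%), 1 of 13 S phase genes (7.69%, Mcm2) and 18.2% of all promoters. CCAAT boxes were in 14 of 15 mitotic genes (93.3%), 8 of 13 S phase genes (61.5%) and 38% of all promoters. A CHR element together with a CCAAT box was found in the same 11 mitotic genes, against 7.16% of all promoters. Birc5, Tyms, Ccne1, E2f1 and Ccnd3 held none of the 3 motifs in this window. A match is a run of letters and was not tested as a binding site.

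**Figure D1:**
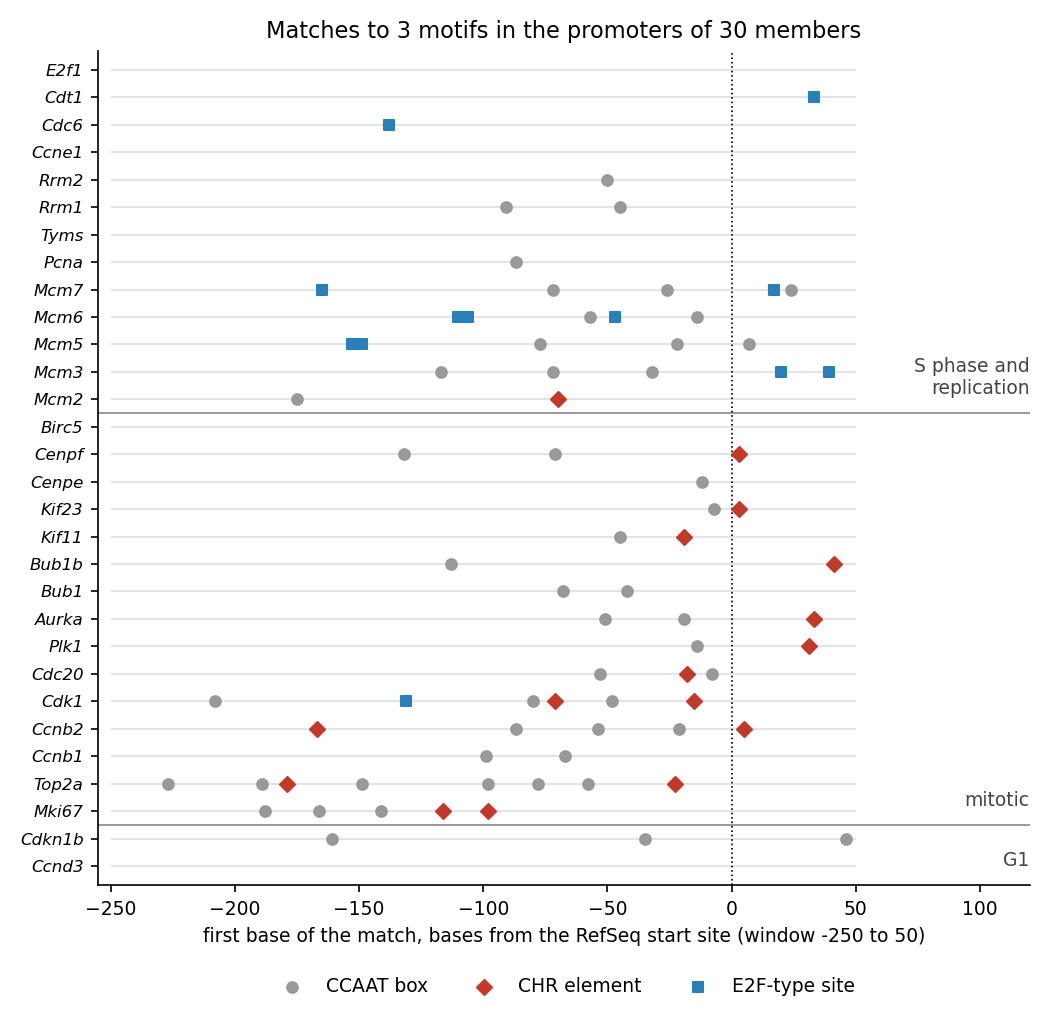
Matches to the 3 motifs in the promoter windows of 30 genes, with the first base of each match in bases from the RefSeq start site on the x axis and 1 gene per line. CHR elements (diamonds) sit mostly in the mitotic genes and E2F-type sites (squares) mostly in the S phase genes, with Cdk1 and Mcm2 as the exceptions.

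The libraries held 1106891 to 1265239 counts and 16283 to 17423 genes with a count, and the ribosomal RNA gene Rn45s took 16.24% to 20.35% of the counts. Aire had 0 counts in all 4 libraries, so it checked no genotype label. Markers of the labelled cell type were present. The 4 CD3 chains summed to 1354 and 1474 CPM (counts scaled to a common library size with TMM, the trimmed mean of M values) in Aire-/- and to 981 and 1492 CPM in Aire+/+. The 10 γδ T17 markers had counts in every library and summed to 5860 and 6660 against 4034 and 5445 CPM. Markers of B and plasma cells were also present, although the gate would remove such cells: 11 of 12 had a count in every library, with sums of 2642 and 2123 CPM in Aire-/- and 5128 and 3251 CPM in Aire+/+. For Igj, the antibody J chain, the Aire-/- libraries held 0 and 4 counts against 1674 and 827 in Aire+/+. Aire+/+ replicate 1 stood apart, with the lowest sums of CD3 chains and γδ T17 markers and the highest of B cell, macrophage, NK cell and αβ T cell markers. Some genes of these lists of other cells were highest in another library. Because of these sums, results are also given without Aire+/+ replicate 1.

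Cell cycle transcripts were detected throughout. Of the 38 genes, 37 had at least 1 count in all 4 libraries (97.37%), against 59.44% of all genes in the table, and the exception was the mitotic kinase Plk1, with 4, 0, 9 and 6 counts in Aire-/- replicates 1 and 2 and Aire+/+ replicates 1 and 2. Counts are given in this order of libraries from here on. At least 10 counts in every library were found for 12 of 16 S phase genes, 9 of 19 mitotic genes and 3 of 3 G1 genes, 24 in all (63.16%), against 35.55% of all genes. The mitotic genes with at least 10 counts numbered 14, 11, 18 and 17. With 0 counts a true level of up to 3 counts, or 2.37 to 2.77 CPM at these depths, is possible, so Plk1 was not shown to be absent from Aire-/- replicate 2. Smart-Seq2 reads carry no molecular identifiers here, and such limits and intervals cover counting error only.

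S phase and G1 transcripts stood at higher levels than mitotic ones. Per kb of the longest transcript, a scale on which genes can be compared, the median of the gene means over the 4 libraries was 22.4 CPM per kb for the 16 S phase genes, 4.38 for the 19 mitotic genes and 33.4 for the 3 G1 genes, against 10.4 for all 9351 tested genes with a known length. The levels of 11 S phase genes, all 3 G1 genes and 1 mitotic gene lay above that median of all genes. Pcna, the polymerase clamp, was the highest S phase gene at 85.1 CPM per kb, and Ccnd2, cyclin D2, followed among all 38 at 61.8. Cdt1, Mcm4 and Mcm6 came next among the S phase genes at 39.1, 38.5 and 33.7 CPM per kb. At the low end were E2f1 and Cdc6, both at 2.03, Gins2 at 1.48 and Ccne1, cyclin E1, at 1.37 CPM per kb, so the S phase group spans the whole range of the mitotic one. Among the mitotic genes Birc5, the survivin subunit of the chromosomal passenger complex, was highest at 14.3 CPM per kb, followed by the topoisomerase Top2a at 8.70, and Cenpf, a kinetochore protein, was lowest at 1.49. Some values depend on the transcript used. The longest transcript of Birc5 has 3334 bases, and with the APPRIS principal transcript the gene stands at 50.3 CPM per kb. With APPRIS lengths Ccnd3, the median G1 gene, moves from 33.4 to 61.0 CPM per kb. Mcm6 then stands at 50.4 and Cdt1 at 48.2, both above Mcm4 at 38.5.

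The summed level per kb of the S phase genes was 4.24 and 5.18 times that of the mitotic genes in Aire-/- and 3.20 and 3.69 times in Aire+/+, with means of 4.71 ± 0.67 and 3.44 ± 0.351 (SD, n = 2 each). Both Aire-/- libraries lay above both Aire+/+ libraries. Aire+/+ replicate 1 had the lowest ratio, and without it 4.24 and 5.18 stand against 3.69 alone. The S phase sum exceeded the mitotic sum in all 4 libraries under each of the 4 ways of forming the ratio. Over the 4 libraries the mean ratio was 4.08, and it was 3.75 without Pcna and Birc5, 3.22 without correction for length and 3.28 with APPRIS lengths, where Aire-/- replicate 1 (3.02) fell below Aire+/+ replicate 2 (3.08).

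**Figure D2:**
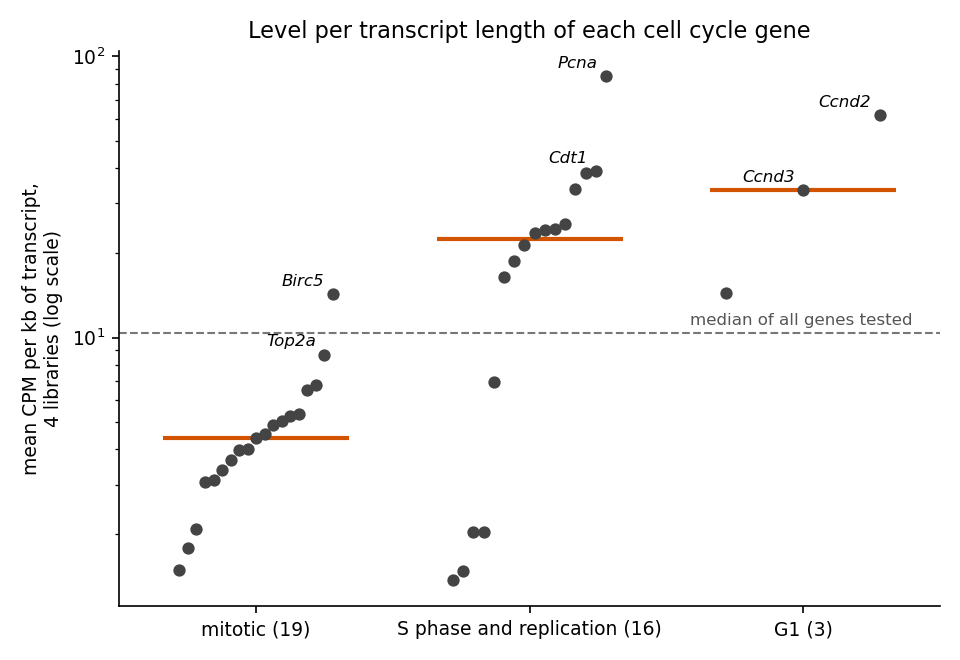
Mean level of each gene over the 4 libraries in CPM per kb of its longest transcript (y axis, log scale), by group, with the group median as a bar and the median of all tested genes as a dashed line. The mitotic genes lie mostly under the dashed line at 10.4, and the S phase genes range from 1.37 to 85.1.

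No cell cycle gene differed between the genotypes past the threshold. By edgeR's quasi-likelihood test with Benjamini-Hochberg adjustment over 9783 genes, 34 of the 38 were tested and 0 had an adjusted p under 0.05, where 0.0% of all tested genes were called higher in Aire-/- and 0.0204% (2 genes) lower. The smallest adjusted p among the 34 was 0.888, and DESeq2 and limma-voom called 0 of them as well. At an unadjusted p under 0.05, 2 were higher in Aire-/- (Ccnd3 and Kif20a, against 2.8% of all tested genes) and 1 was lower (Kif11, against 2.77%). In 6 of the 34 genes both Aire-/- libraries lay above both Aire+/+ libraries, where 17.2% of all tested genes did so, and in 7 both lay below, where 17.3% did. By group, 4 of 14 S phase genes lay above (28.57%) and 0 below, and 1 of 17 mitotic genes lay above (5.88%) and 6 below (35.29%). Over the 34 together both counts are close to the background, and whether the groups differ was not tested. The approximate 95% intervals of the log2 fold changes were 0.98 to 4.64 wide, with a median of 1.21 for S phase and 2.35 for mitotic genes. With 2 libraries a genotype and adjustment over 9783 genes, real differences could go uncalled, so 0 calls do not show equal levels. The 4 genes with too few counts to be tested were Ccne1, Gins2, Plk1 and Aurka.

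**Figure D3:**
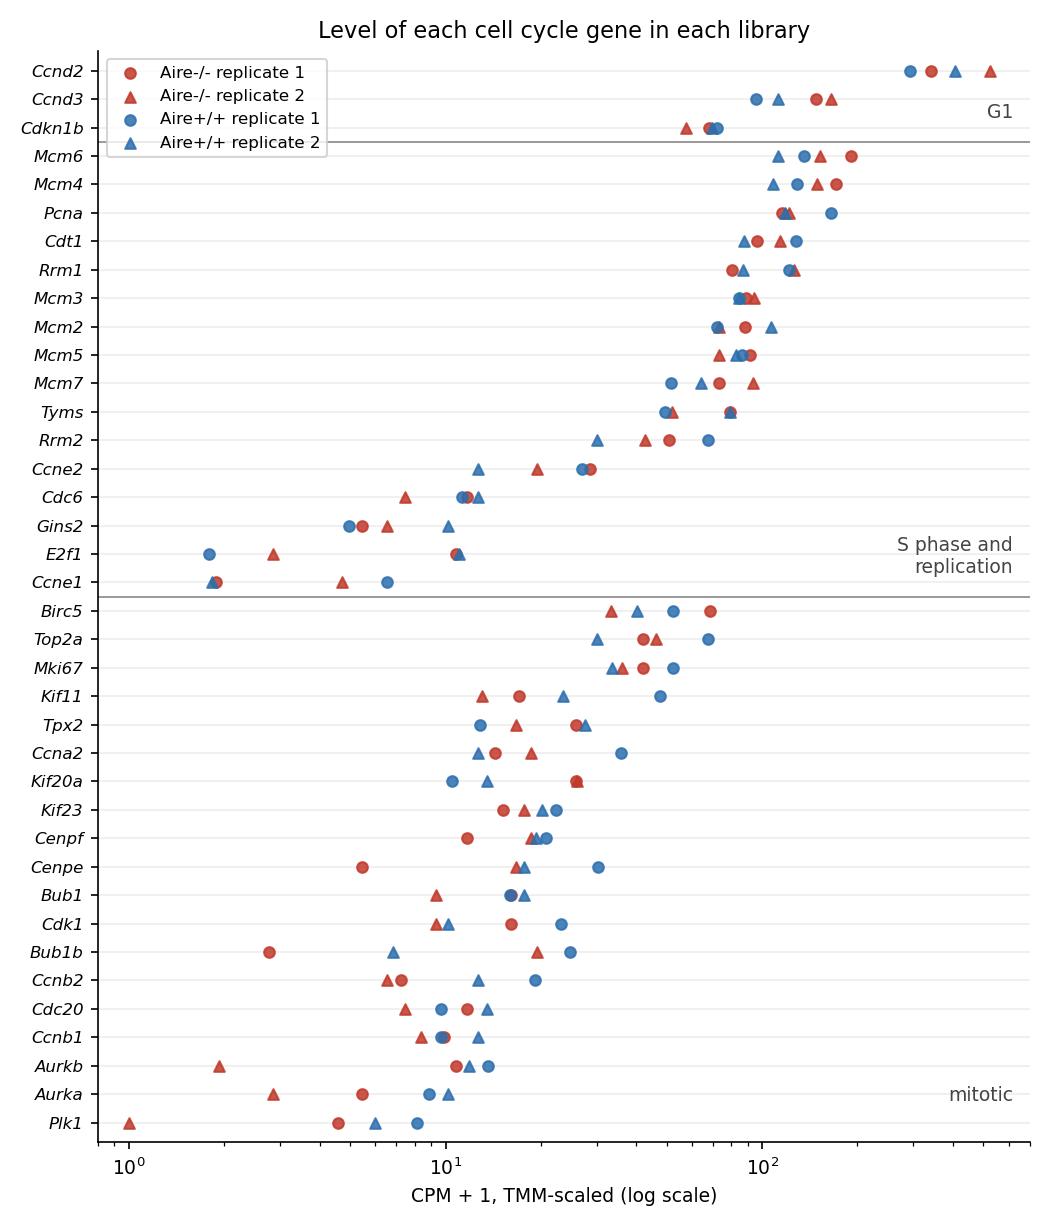
Level of each of the 38 genes in each library (x axis, TMM-scaled CPM plus 1, log scale), 1 gene per line, in 3 groups ordered by mean level. Symbols of the same colour are the 2 libraries of a genotype, and for most genes the colours interleave.

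Among the S phase genes the helicase subunits Mcm6 and Mcm4 carried the most counts. Mcm6 had 214, 164, 170 and 133 counts, or 171 ± 27.5 CPM in Aire-/- and 123 ± 16.6 CPM in Aire+/+ (SD, n = 2 each, as for all such pairs of means). Mcm4 had 191, 160, 162 and 129 counts (159 ± 15.6 against 118 ± 14.5 CPM), and Mcm7 had 81, 100, 64 and 76 (82.2 ± 14.4 against 56.9 ± 9.02 CPM). In these 3 genes the Aire-/- libraries were both above the Aire+/+ libraries, and the log2 fold changes (Aire-/- minus Aire+/+) were 0.48 for Mcm6, 0.43 for Mcm4 and 0.53 for Mcm7, each with an adjusted p of 0.908 by edgeR. Without Aire+/+ replicate 1 they read 0.61, 0.55 and 0.36. Mcm3, with 99, 101, 106 and 100 counts, was also higher in both Aire-/- libraries after scaling, by 0.12 on the log2 scale, and Mcm2 (98, 78, 90 and 127 counts) and Mcm5 (102, 78, 108 and 98) overlapped between genotypes with values of -0.15 and -0.04. Summed over the 6 subunits, the ring stood at 699 and 629 CPM in Aire-/- and 553 and 552 CPM in Aire+/+, a log2 difference of 0.26 with no overlap. Divided by the counts of the CD3 chains the same sums were 0.516 and 0.427 against 0.564 and 0.370, and overlapped. Mcm7 is uncertain, since its exons share 321 bases with Ap4m1 and 64 with Cops6 on the opposite strand, and the sources used here do not say whether the counting used strand.

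The other S phase genes did not separate by genotype. Pcna had 129, 130, 208 and 141 counts, of which only Aire+/+ replicate 1 stood out, and its log2 fold change was -0.27, or -0.01 without that library. Rrm1 and Rrm2, the subunits of ribonucleotide reductase, had 89, 135, 153 and 103 and 56, 45, 84 and 35 counts, and by CPM the lowest and the highest library were both Aire-/- in Rrm1 and both Aire+/+ in Rrm2. Tyms, thymidylate synthase, had 88, 55, 61 and 94 counts, so that its libraries within a genotype differed more than its genotype means, 64.6 ± 19.4 and 63.2 ± 21.3 CPM. The licensing factors Cdt1 (107, 122, 161 and 104 counts) and Cdc6 (12, 7, 13 and 14) had log2 fold changes of -0.04 and -0.35. Ccne2, cyclin E2, had 31, 20, 33 and 14 counts with a log2 fold change of 0.28, and shares 609 exon bases with Ints8 on the opposite strand. E2f1 had 11, 2, 1 and 12 counts, high in 1 library of each genotype, and its approximate interval ran from -2.19 to 2.45. The untested Ccne1 (1, 4, 7 and 1 counts) and Gins2, a subunit of the replicative helicase complex (5, 6, 5 and 11), overlapped as well, and Gins2 shares 2758 exon bases with Gse1.

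Of the mitotic genes, most had a lower mean in Aire-/-. Among the 17 tested, 14 had a log2 fold change below 0 and 3 above, with a median of -0.42, against 49.09% below 0 and a median of 0.01 over all tested genes. With no filter on low counts, which takes in Plk1 and Aurka, 16 of 19 were below 0 with a median of -0.43, where 48.52% of all genes were. Aire+/+ replicate 1 was the highest library for 11 of the 17 (64.7%, against 25.3% of all tested genes). Aire-/- replicate 2 was the lowest for 8 (47.1%, against 26.1%). Without Aire+/+ replicate 1, 11 of 18 tested were below 0, with a median of -0.40. Of all genes tested without that library 48.31% were below 0, with a median of 0.02.

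Among the motor proteins of the spindle, Kif11 and Kif20a had values past 1 on the log2 scale in opposite directions. Kif11, the motor that pushes spindle poles apart and whose promoter is printed above (chromosome 19, 37376403 to 37421859, GRCm38), had 18, 13, 59 and 27 counts. Both Aire-/- libraries were below both Aire+/+ libraries, at 14 ± 2.83 against 34.5 ± 17 CPM, and the Aire+/+ libraries differed by more than the gap to the nearest Aire-/- library. Its log2 fold change was -1.30 (SE 0.47, approximate 95% interval -2.31 to -0.28), with an adjusted p of 0.888 by edgeR. Without Aire+/+ replicate 1 it read -0.69. Kif20a, a kinesin of the central spindle and of cytokinesis, went the other way with 28, 27, 12 and 15 counts, or 24.9 ± 0.0233 against 11 ± 2.13 CPM, and was higher by 1.17 on the log2 scale (SE 0.47, adjusted p 0.888 by edgeR). Without Aire+/+ replicate 1 it read 0.98. Kif20a (chromosome 18, 34624613 to 34633277) is uncertain because 1271 of its exon bases lie in Cdc23 on the opposite strand, which had 64, 67, 65 and 59 counts. Kif23, the kinesin of the centralspindlin complex, had 16, 18, 27 and 23 counts without overlap and a log2 fold change of -0.39. Tpx2, which nucleates spindle microtubules, had 28, 17, 15 and 32 counts, more spread within than between genotypes.

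The cyclins and the kinase that drive entry into mitosis were at low counts. Ccnb2, cyclin B2, had 7, 6, 23 and 14 counts (5.89 ± 0.484 against 14.9 ± 4.6 CPM), lower in both Aire-/- libraries, with a log2 fold change of -1.33 (-0.99 without Aire+/+ replicate 1) and an adjusted p of 0.908 by edgeR. Ccnb1, cyclin B1, had 10, 8, 11 and 14 counts and Ccna2, cyclin A2, had 15, 19, 44 and 14. Both overlapped between genotypes, with log2 fold changes of -0.32 and -0.59. Ccna2 was high in Aire+/+ replicate 1 alone and reads 0.39 without that library. Cdk1, the mitotic kinase, had 17, 9, 28 and 11 counts and likewise turned from -0.42 to 0.34 without Aire+/+ replicate 1. Cdc20, which activates the anaphase-promoting complex, had 12, 7, 11 and 15 counts and overlapped. Ccna2 and Cdc20 share 510 and 53 exon bases with Exosc9 and Elovl1 on the opposite strand, and Pcna, Tyms, Ccnb1, Ccnb2 and Ccnd3 have annotated pseudogenes that could share their reads.

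Among mitotic kinases, checkpoint and kinetochore genes, Aurkb, the kinase of the chromosomal passenger complex, had 11, 1, 16 and 13 counts, where the low value was Aire-/- replicate 2 alone, and a log2 fold change of -1.10 (adjusted p 0.947 by edgeR) that read -0.26 without that library. The untested Aurka, the spindle pole kinase, had 5, 2, 10 and 11 counts and Plk1 4, 0, 9 and 6, lower in both Aire-/- libraries in each case but within a few counts. Of the spindle checkpoint kinases, Bub1 had 17, 9, 19 and 20 counts and overlapped by level. Bub1b had 2, 20, 30 and 7 counts, and its high and low libraries split each genotype. Cenpe, the kinetochore motor, had 5, 17, 37 and 20 counts (10.1 ± 7.96 against 22.9 ± 8.88 CPM) and Cenpf had 12, 19, 25 and 22. Both were lower in the Aire-/- libraries without overlap, with log2 fold changes of -1.19 and -0.43, although Aire-/- replicate 2 came close to Aire+/+ replicate 2. Single libraries moved Cenpe to -0.55 (without Aire-/- replicate 1), -2.34 (without Aire-/- replicate 2) or -0.74 (without Aire+/+ replicate 1), and Cenpf to -0.12, -0.83 or -0.39. The genes most used as proliferation markers did not separate: Mki67 had 46, 38, 65 and 39 counts (38 ± 4.12 against 41.9 ± 13.3 CPM, log2 fold change -0.14). Top2a had 46, 49, 84 and 35 counts (43.1 ± 3.07 against 47.8 ± 26.3 CPM, -0.15), so that the lowest and the highest library were both Aire+/+. Birc5 had 76, 35, 65 and 47 counts and a log2 fold change of 0.14.

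**Figure D4:**
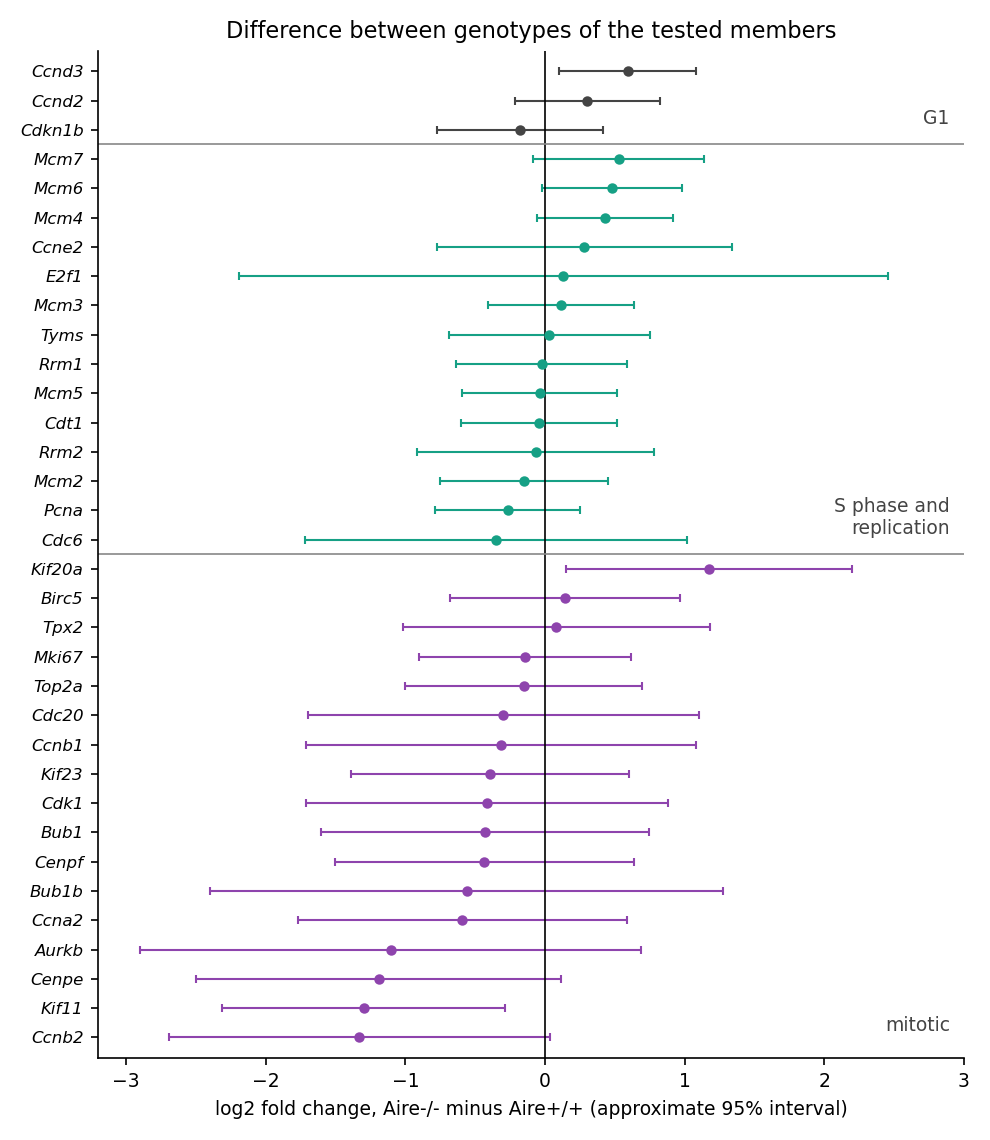
Log2 fold change of each of the 34 tested genes (x axis, Aire-/- minus Aire+/+) with its approximate 95% interval, by group. The intervals of Ccnd3, Kif20a and Kif11 exclude 0 before adjustment, and 0 genes pass after it.

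The G1 regulators were well measured. Ccnd3, cyclin D3, which T cell precursors need to expand (chromosome 17, 47505051 to 47599691), had 165, 177, 120 and 133 counts, or 155 ± 11.8 CPM in Aire-/- and 103 ± 11.3 CPM in Aire+/+. The genotypes did not overlap, and the log2 fold change was 0.59 (SE 0.23, interval 0.10 to 1.08), with an adjusted p of 0.888 by edgeR. It read 0.47 without Aire+/+ replicate 1. Ccnd3 shares 361 exon bases with Bysl on the opposite strand, whose counts of 52, 92, 63 and 116 did not follow it. Ccnd2 had 383, 568, 371 and 488 counts (433 ± 130 against 350 ± 80.3 CPM), and replicate 2 was the higher library in both genotypes. Its log2 fold change of 0.30 became -0.04 without Aire-/- replicate 2. Cdkn1b had 75, 61, 90 and 82 counts (61.6 ± 7.34 against 69.7 ± 1.97 CPM), lower in both Aire-/- libraries by a log2 fold change of -0.18.

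Summed by group, the S phase genes reached 1169 and 1115 CPM in Aire-/- and 1126 and 993 CPM in Aire+/+, a log2 difference of 0.11 against a spread within genotypes of 0.10 (SD on the log2 scale), and 0.20 without Aire+/+ replicate 1. The mitotic genes summed to 334 and 290 CPM in Aire-/- and 466 and 321 CPM in Aire+/+ (312 ± 30.8 against 393 ± 103), a log2 difference of -0.31 against a spread of 0.29. The 4 pairings of an Aire-/- with an Aire+/+ library gave -0.68 to 0.06, and without Aire+/+ replicate 1 the difference was -0.04. The G1 sums were 554 and 745 against 459 and 586 CPM, a difference of 0.31 against a spread of 0.28, and 0.13 without Aire+/+ replicate 1. All 3 sums overlapped between genotypes.

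Aire+/+ replicate 1, the highest library for the mitotic sum, was also the highest for each sum of markers of other cells. The order of the mitotic sum from high to low was Aire+/+ replicate 1, Aire-/- replicate 1, Aire+/+ replicate 2 and Aire-/- replicate 2. Of the marker sums, that of 5 αβ T cell markers (Cd4, Cd8a, Cd8b1, Ccr7 and Lef1, all with a count in every library) had this order, at 718 and 517 CPM in Aire-/- and 1265 and 669 CPM in Aire+/+, and Ccr7, also expressed by B cells, gave most of its counts. Cd8a and Cd8b1 were highest in Aire-/- replicate 1, Lef1 in Aire-/- replicate 2 and Cd4 in Aire+/+ replicate 2. The sum of the whole list of 12 B and plasma cell markers, given above, placed Aire+/+ replicate 2 second. Igj alone gave 0 and 3.70 CPM in Aire-/- and 1322 and 689 CPM in Aire+/+. Without Igj the rest of that list summed in the mitotic order. The B cell genes Cd79a, Cd79b and Ms4a1 summed to 1334 and 1003.5 CPM in Aire-/- and 2040 and 1303 CPM in Aire+/+, in the order of the mitotic sum, but of these 3 genes Cd79b alone had that order by itself. Macrophage markers, 7 of 9 with a count in every library, summed to 135 and 190 against 469 and 158 CPM. NK cell markers, 5 of 6 with a count in every library and Klra8 at 0 in all, summed to 66.7 and 129 against 187 and 134 CPM. Neither of these sums followed the mitotic order below the top library. Apoe and Lyz2 gave most of the macrophage sum in Aire+/+ replicate 1, at 243 and 147 CPM. Csf1r, Cd14 and Mrc1 were also highest in that library. Emr1 was highest in Aire-/- replicate 1, Cd68 in Aire-/- replicate 2, and Marco and Itgam in Aire+/+ replicate 2. Gzma gave most of the NK sum, at 42.7 and 89.6 against 160 and 92.5 CPM. Of the other NK markers Klrb1c was also highest in Aire+/+ replicate 1. Ncr1 was highest in Aire-/- replicate 2, Eomes in Aire-/- replicate 1 and Itga2 in Aire+/+ replicate 2. Divided by the counts of the CD3 chains in the same library, the mitotic sum was 0.246 and 0.197 for Aire-/- against 0.475 and 0.215 for Aire+/+, and the S phase sum was 0.863 and 0.757 against 1.15 and 0.666. The part of other cells in these sums was not tested. In RNA from whole sorted samples, fewer dividing cells and less of a transcript per cell cannot be told apart.

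**Figure D5:**
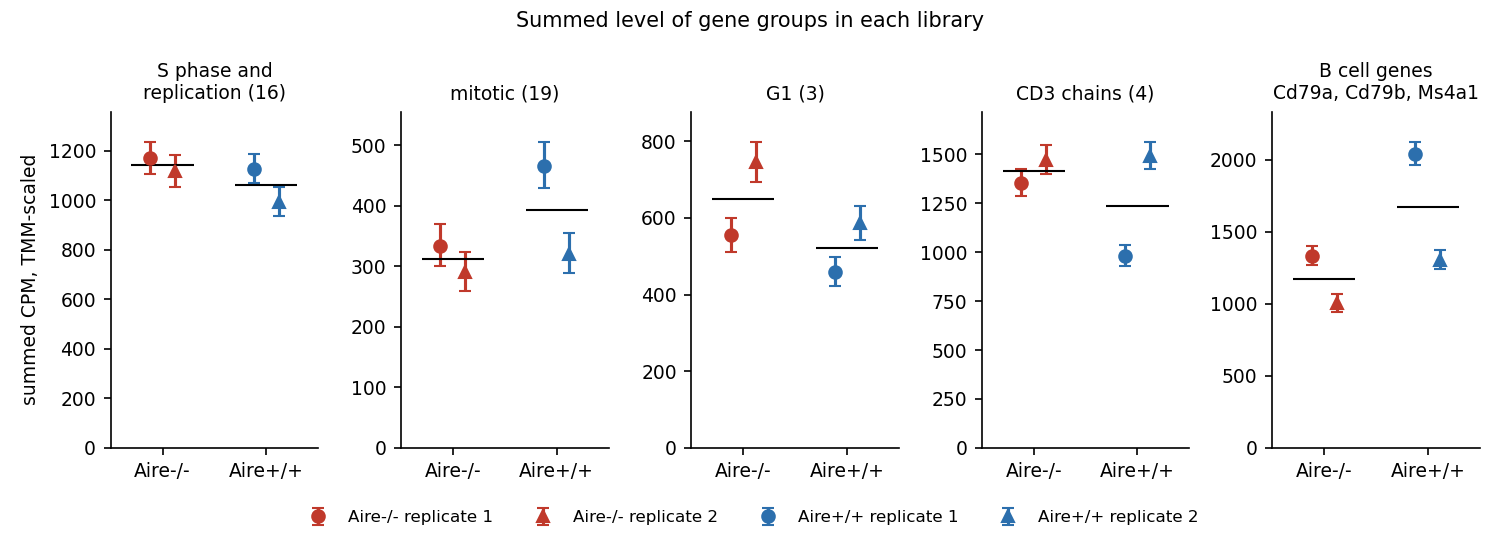
Summed CPM of the 3 gene groups, the 4 CD3 chains and 3 B cell genes in each library (y axes from 0, a panel each), with 95% Poisson intervals that cover counting error only and a bar at each genotype mean. Aire+/+ replicate 1 is the highest library for the mitotic genes (466) and the B cell genes (2040) and the lowest for the CD3 chains (981).

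Other genes of the same pathways gave 0 called by edgeR in either direction. Of 44 further replication genes 39 were tested, 24 above and 15 below 0 with a median of 0.07, and at an unadjusted p under 0.05 there were 1 above and 3 below, against the 2.8% and 2.77% of all tested genes given above. Pola1, the catalytic subunit of the polymerase that primes DNA synthesis, had 133, 77, 55 and 44 counts, higher in both Aire-/- libraries, with a log2 fold change of 1.24 and an adjusted p of 0.671 by edgeR. It passed only in 2 of the alternatives run: with no filter on low counts (0.103% of all genes called higher) and without Aire-/- replicate 2 (0.0458%). Pole, the leading-strand polymerase, was lower with 7, 4, 26 and 19 counts (log2 fold change -1.85, adjusted p 0.835 by edgeR), as was Orc6, of the origin recognition complex, with 21, 18, 41 and 46 counts (17.7 ± 1.45 against 35.4 ± 4.2 CPM, adjusted p 0.888 by edgeR). Rpa1, Slbp and Orc3 had the highest CPM of that list and log2 fold changes of 0.23, 0.06 and 0.17.

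Of 49 further mitotic genes 31 were tested, 14 above and 17 below 0 with a median of -0.03 beside -0.42 for the 17 tested mitotic genes above. The difference between the lists was not tested. At an unadjusted p under 0.05 there were 1 above and 3 below in this list too. Nusap1, a spindle microtubule protein, had 6, 6, 25 and 21 counts (log2 fold change -1.76, adjusted p 0.835 by edgeR). Kif4, the chromokinesin, had 0, 4, 13 and 19 counts and Incenp, the scaffold of the chromosomal passenger complex, 24, 22, 13 and 10, with no overlap in either gene and in opposite directions. The most abundant members, Cdc25b, Bub3 and Hmmr, had log2 fold changes of 0.10, -0.13 and 0.22.

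Of 30 other cyclins, kinases, E2F and pocket proteins 22 were tested, 12 above and 10 below 0 with a median of 0.09. Lin37, a subunit of MuvB, had 17, 19, 41 and 35 counts, Cks2, a partner of Cdk1, 15, 24, 52 and 32, and Tfdp1, the dimer partner of E2F, 32, 35, 26 and 16. These 3 did not overlap between genotypes, at log2 fold changes of -0.91, -0.93 and 0.83, with adjusted p from 0.888 to 0.908 by edgeR. Rbl2, Skp1a and Cdk4 had the highest CPM, and Rbl2, the pocket protein p130, had 261, 370, 299 and 264 counts and a log2 fold change of 0.33. Of 20 inhibitors of cyclin-dependent kinases and quiescence genes 15 were tested, 7 above and 8 below 0 with a median of -0.03. Slfn2, which keeps T cells quiescent, had 241, 204, 150 and 194 counts and a log2 fold change of 0.52. Cdkn2c, the inhibitor p18, had 8, 10, 23 and 17 counts and one of -0.98, and Foxo1 132, 156, 221 and 187 counts and one of -0.34. Btg2, Btg1 and Foxp1 had the highest CPM of that list, and Cdkn1c and Cdkn2a had 0 counts in all 4 libraries.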

How the data were processed

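Read counts are as the authors deposited them, per the file headers: whole numbers, with genes in rows and the 4 libraries in columns. The submitters' processing notes list TopHat2 2.0.10, Cufflinks 2.2.1 and mm10, and give neither their role nor their order. Not given in the sources used here are the annotation, the use of strand and the treatment of duplicate reads.

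Counts were fitted over the whole table with edgeR 4.0.16 (R 4.3.3): TMM, filterByExpr with a minimum count of 10 and a minimum total of 15, and the quasi-likelihood F test on genotype in all 4 libraries, with Benjamini-Hochberg adjustment over the 9783 genes that passed and calls at 0.05. The SE of a fold change is the log2 fold change over the square root of F, and its interval is approximate. DESeq2 1.42.0 and limma 3.58.1 (voom) were alternatives, with other factors and filters, a replicate block and each library left out. Levels per kb used the longest transcript in GENCODE M21 (GRCm38), which also gave exon overlaps. No 2 libraries were copies: chi-square over degrees of freedom was 3.11 to 3.12 within and 2.89 to 4.09 between genotypes. The fit was tested on simulated data. Of the genes outside the 38, those named are up to 3 with the smallest p and up to 3 with the highest CPM in each list. A marker gene is not reported here. The members and lists were chosen with earlier results of these data known.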

Additional observations from a re-analysis of the deposited data

How the results depend on the processing

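Under each setting run, 0 of the cell cycle genes passed an adjusted p of 0.05, and 0 passed 0.1 with the settings of the report. Over all genes, 0 were called higher and 2 lower. These counts became 21 and 26 with no filter, 2 and 4 with the replicate number as a block, and 5 to 21 and 6 to 42 when a library was left out, and limma-voom called 1 lower. Among the other pathway genes 1, Pola1, was called higher with no filter and 0 to 1 when a library was left out. Same-numbered libraries did not deviate together (r = -0.08 across genes), so the block has no basis in the labels or the data.

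The log2 difference of the S phase sum, 0.11, was -0.11 per count of the CD3 chains and 0.00356 as the median over tested genes. Of the 38 genes 24 had 10 counts in all 4 libraries. The ratio of S phase to mitotic levels was 3.22 without length and 3.28 with APPRIS lengths, a choice made after seeing the data, as were leaving out Rn45s and leaving Kif11 out of the mitotic sum.

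Of 34 log2 fold changes, 17 turned sign in at least 1 setting, all with a library left out. Their ranges over the libraries left out were -0.42 to 0.16 for Mcm2, -0.21 to 0.12 for Mcm5, -0.31 to 0.42 for Tyms, -0.39 to 0.27 for Rrm1, -0.54 to 0.63 for Rrm2, -0.18 to 0.96 for Ccne2, -0.29 to 0.25 for Cdt1, -1.48 to 0.86 for E2f1, -0.43 to 0.21 for Mki67, -0.62 to 0.55 for Top2a, -1.17 to 0.39 for Ccna2, -0.91 to 0.34 for Cdk1, -0.70 to 0.0137 for Cdc20, -2.99 to 0.77 for Bub1b, -0.48 to 0.58 for Birc5, -0.40 to 0.77 for Tpx2 and -0.0373 to 0.58 for Ccnd2. Tyms also read -0.00734 with upper-quartile factors, and Rrm2 0.0363 with limma-voom and 0.0159 with the replicate block. The cause was not tested. E2f1 was not tested without Aire+/+ replicate 2. With 2 libraries a genotype, the widest intervals were those of E2f1 (11, 2, 1 and 12 counts), Bub1b (2, 20, 30 and 7) and Aurkb (11, 1, 16 and 13). These genes had counts under about 10 and libraries that lay far apart within a genotype.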
